A study of Mus musculus with 6 samples.

Results

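The 9 genes described here, Pcp2, Calb1, Car8, Itpr1, Pcp4, Gng13, Ppp1r17, Rora and Homer3, are known markers of Purkinje cells and were picked by symbol, not by a measured value. All 9 were present among the 24537 genes of the 6 libraries. The libraries were made from cerebellum of male mice aged 6 weeks. Of these, 3 are labelled Reln HET (heterozygous null for reelin, so with a normal allele beside the null one, strain label Orl/BalbC) and 3 are labelled wild type, WT (strain label C57BL/6). Genotype and strain label split the libraries in the same way and cannot be told apart. Nothing in the labels says whether each library is a different mouse, so each p-value measures only the spread between these libraries.

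Purkinje cells are the large GABAergic neurons whose axons are the only output of the cerebellar cortex. During development they form a single-cell layer, and that placement depends on reelin, which granule cells secrete. Their dendrites receive parallel fibre input that acts through the metabotropic glutamate receptor mGluR1 and opens calcium stores inside the cell, and most of the 9 genes encode parts of this G protein and calcium machinery. Itpr1, Car8 and Homer3 act at the calcium store, Calb1 and Pcp4 bind calcium or calmodulin, Pcp2 and Gng13 act on G proteins, Ppp1r17 inhibits phosphatases and Rora is a transcription factor. Some of them are also expressed outside Purkinje cells, such as Rora in molecular layer interneurons, and in bulk tissue fewer cells of a type and less RNA per cell cannot be told apart.

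Sequences just upstream of the transcription start are shown because Rora, one of the 9, is known to bind DNA at AGGTCA with A/T-rich bases before it, and mice with mutant Rora lose expression of several Purkinje genes. The RefSeq promoter table used here (GRCm38.p6, the build also called mm10) covered 5 of the 9 genes, and the windows of Calb1, Car8, Itpr1 and Ppp1r17 were not analysed here. The 6 letters AGGTCA were searched on both strands in the 250 bases before each start. They occurred in 5 of the 9 windows of these genes, while 14.0% of all 32851 windows held them. Counted by gene this was 3 of the 5 covered, and the share of all genes was not computed. The 5 windows belong to Pcp2 (3 of its 4 windows, of which 2 overlap and share a site), Pcp4 and Homer3, and the windows of Gng13 and Rora did not hold the letters. In the lines below, written 5′ to 3′ on the strand of the gene, capitals mark AGGTCA or, where it lies on the other strand, its reverse complement TGACCT. The Pcp2 sites lie at chr8:3625548-3625571 and chr8:3625045-3625074 (minus strand), the Pcp4 window at chr16:96467356-96467605 (plus strand) and the Homer3 site at chr8:70282830-70282859 (plus strand).
Pcp2, first start: aaaggccttctcAGGTCAgagacc
Pcp2, start within the gene: ggagtcaggggcAGGTCAgggaaggagact
Homer3: agttcctcctctTGACCTcctggtgccctc
Pcp4, the whole window: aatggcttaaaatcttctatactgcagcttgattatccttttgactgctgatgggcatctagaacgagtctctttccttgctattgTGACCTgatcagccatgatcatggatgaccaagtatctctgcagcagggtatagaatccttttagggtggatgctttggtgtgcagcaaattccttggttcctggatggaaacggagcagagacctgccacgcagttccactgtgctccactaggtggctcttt
The first Pcp2 site ends 7 bases before its start, the Homer3 site 152 and the Pcp4 site 159 bases before theirs. The Homer3 site lies within an annotated Homer3 exon, because GENCODE places the start of the gene further upstream than the start used for the window. The Pcp2 windows that held the letters also overlap annotated exons, of Pet100 at the first start and of Pcp2 at the start within the gene. Of the 6 bases before AGGTCA, read on its own strand, 1 to 3 were A or T at the sites shown, so none has an A/T-rich stretch there. The windows differed in base composition. That of Pcp4 was 46.8% G or C with 3 CpG, against a median of 52.4% and 6 CpG over all windows, while those of Homer3 (68.0%, 11 CpG) and Rora (61.2%, 26 CpG) were richer in both. A match of these letters is a description of the window and was not tested for binding.

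Values are FPKM, read counts scaled to exon length and to the size of the library. Depth, as estimated from the spacing of low FPKM values, was about 22810000 to 27000000 reads in HET libraries and 27050000 to 28760000 reads in WT libraries. At these depths counting error alone was at most 18% for Rora in its lowest library and at most 10% for each of the other 8, taken at the shortest annotated coding transcript. Reln checked the labels, with 0.531, 0.509 and 0.580 FPKM in HET replicates 1, 2 and 3 against 0.834, 0.771 and 0.940 FPKM in WT replicates 1, 2 and 3 (two-sided exact permutation p = 0.1, the smallest that 3 against 3 libraries allow). At a mean of 0.694 FPKM, Reln was not part of the limma test over all genes described below (mean of at least 1 FPKM). With the minimum lowered to 0.5 FPKM its limma adjusted p was 0.78. The label of the tissue was checked with 14 granule cell markers, which all had a mean of at least 1.3 FPKM, and the highest of them, Cbln3, stood at 189 ± 13 FPKM in HET and 177 ± 11 FPKM in WT (SD, n = 3 each).

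All 9 Purkinje markers were detected in every library, over a wide range of levels per length. Pcp2 ranked 30 and Gng13 ranked 87 by mean FPKM among the 24497 genes with a value in all 6 libraries, while Rora ranked 8306. The means over 6 libraries, in FPKM, were 155 for Pcp2, 79.2 for Gng13, 30.6 for Calb1, 21.4 for Homer3, 12.2 for Itpr1, 11.7 for Car8, 9.01 for Ppp1r17, 6.67 for Pcp4 and 0.559 for Rora. Each gene in that order lay above the next in 6 of 6 libraries, except that Itpr1 lay above Car8 in 4 of 6. The ranges over libraries overlapped for Calb1 and Homer3, for Itpr1 and Car8 and for Car8 and Ppp1r17.

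No Purkinje marker differed between HET and WT cerebellum by more than the spread between libraries. Rora lay below the minimum mean of 1 FPKM, and the other 8 entered the test over all genes, limma on log2(FPKM + 1), and 0 of the 8 passed a Benjamini-Hochberg adjusted p of 0.05 (limma adjusted p = 0.90 for each; 0 of 8 at an unadjusted p under 0.05). Over all 6358 genes tested, 5 passed, or 0.0786%, of which the 1 that was higher in HET is 0.0157%, and 212 had an unadjusted p under 0.05. On FPKM as deposited, up to 67 passed when libraries were left out. After median-of-ratios scaling, described further on, 0 genes passed in limma (325 at an unadjusted p under 0.05). The 2 groups overlapped for all 9 markers, as they did for most genes tested (5.55% did not overlap). The mean was higher in HET for 9 of 9 markers, as it was for 83.1% of all genes tested, so this count lies near the background.

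**Figure D1:**
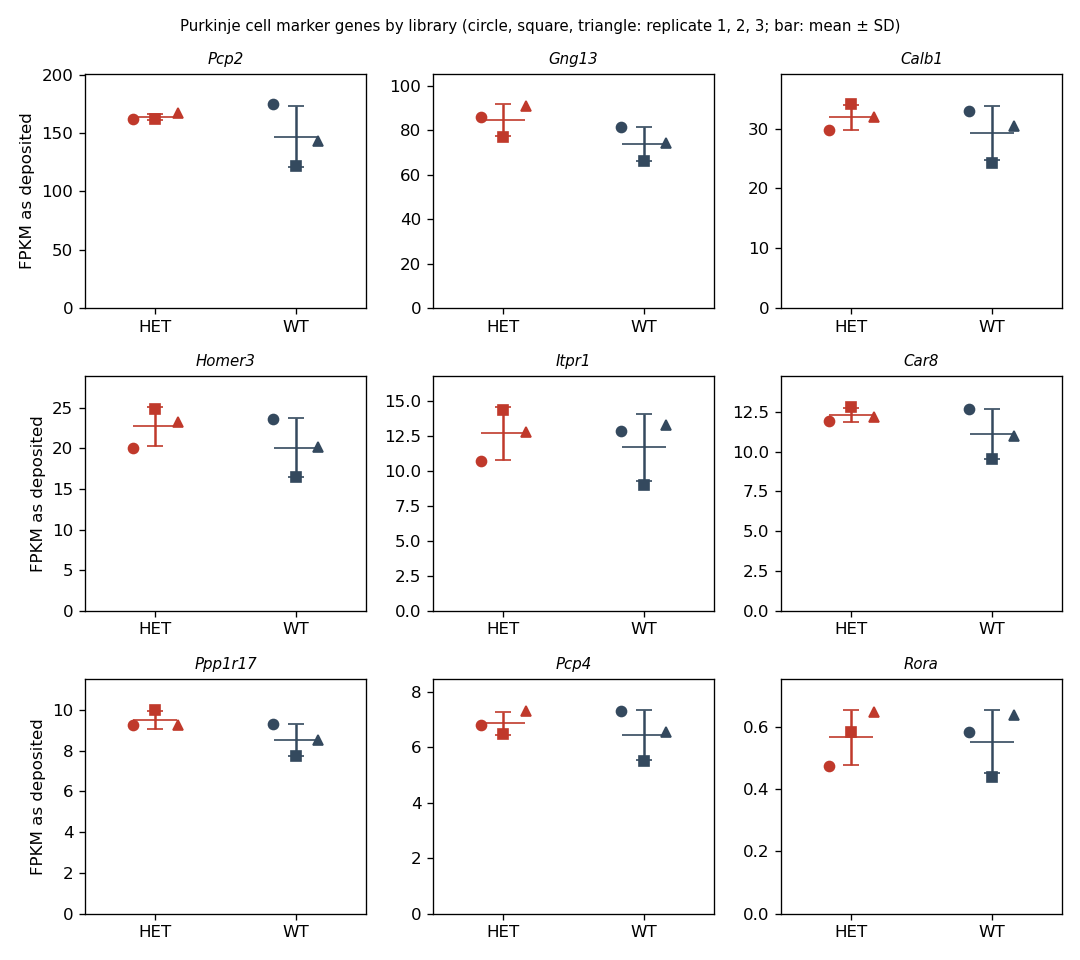
FPKM as deposited for each of the 9 Purkinje markers in HET (red, left) and WT (dark, right) libraries; circles, squares and triangles are replicates 1, 2 and 3, and horizontal lines with bars are the mean ± SD (n = 3 each). In every panel the square of WT replicate 2 is the lowest point and the 2 groups overlap.

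Among the calcium store genes, Itpr1 encodes the inositol trisphosphate receptor, the channel that releases calcium from the endoplasmic reticulum. Itpr1 (ENSMUSG00000030102, chr6:108213096-108551109, plus strand; gene positions are those of GENCODE on GRCm38) had 10.7, 14.4 and 12.8 FPKM in HET replicates 1, 2 and 3, against 12.9, 9.02 and 13.3 FPKM in WT replicates 1, 2 and 3. The lowest library was a WT one and the highest a HET one, with the other 4 in between. The difference in mean log2(FPKM + 1), HET minus WT, was 0.11 (SE 0.16, 95% interval -0.21 to 0.43). Itpr1 varied most of the 9 as deposited, with a highest value 1.60 times its lowest.

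Car8 encodes a carbonic anhydrase-related protein without enzyme activity that binds this receptor and lowers its affinity for inositol trisphosphate. Car8 (ENSMUSG00000041261, chr4:8143362-8239041, minus strand) had 11.9, 12.8 and 12.2 FPKM in HET replicates 1, 2 and 3, against 12.7, 9.52 and 11.0 FPKM in WT replicates 1, 2 and 3. Apart from WT replicate 2 its values lay close together. The log2 difference was 0.15 (SE 0.15, 95% interval -0.15 to 0.45).

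Homer3 encodes a scaffold that ties mGluR1 to the inositol trisphosphate receptor at the synapse. Homer3 (ENSMUSG00000003573, chr8:70282827-70294361, plus strand) had 20.1, 24.8 and 23.3 FPKM in HET replicates 1, 2 and 3, against 23.6, 16.5 and 20.2 FPKM in WT replicates 1, 2 and 3. HET replicate 1 and WT replicate 3 were almost equal. The log2 difference was 0.18 (SE 0.17, 95% interval -0.155 to 0.51).

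Calb1 encodes calbindin, a fast calcium buffer and the usual antigen for staining Purkinje cells. Calb1 (ENSMUSG00000028222, chr4:15881264-15908064, plus strand) had 29.8, 34.1 and 31.9 FPKM in HET replicates 1, 2 and 3, against 33.0, 24.2 and 30.5 FPKM in WT replicates 1, 2 and 3. WT replicates 1 and 3 both lay within the HET range. The log2 difference was 0.13 (SE 0.17, 95% interval -0.21 to 0.47).

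Pcp4 encodes a small protein that binds calmodulin and speeds its exchange of calcium. Pcp4 (ENSMUSG00000090223, chr16:96467606-96525793, plus strand) had 6.82, 6.49 and 7.31 FPKM in HET replicates 1, 2 and 3, against 7.31, 5.52 and 6.56 FPKM in WT replicates 1, 2 and 3. The highest HET and WT libraries were alike. The log2 difference was 0.082 (SE 0.14, 95% interval -0.20 to 0.36), level with the median of all genes tested, 0.083.

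Pcp2, also called L7, encodes a modulator of inhibitory G proteins, and its promoter is widely used to drive transgenes in Purkinje cells. Pcp2 (ENSMUSG00000004630, chr8:3623371-3625545, minus strand) had 162, 162 and 167 FPKM in HET replicates 1, 2 and 3, against 175, 122 and 143 FPKM in WT replicates 1, 2 and 3. The 3 HET libraries lay inside the WT range, and the SD was 2.7 FPKM in HET and 26 FPKM in WT (n = 3 each). The log2 difference was 0.17 (SE 0.19, 95% interval -0.20 to 0.55).

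Gng13 encodes a G protein gamma subunit, first known from taste cells. Gng13 (ENSMUSG00000025739, chr17:25717171-25719406, plus strand) had 85.9, 76.8 and 91.0 FPKM in HET replicates 1, 2 and 3, against 81.7, 66.1 and 74.1 FPKM in WT replicates 1, 2 and 3. HET replicate 2 was below WT replicate 1, which made the groups overlap. Its log2 difference, 0.19 (SE 0.18, 95% interval -0.17 to 0.55), had the highest value of the 8, and a two-sided exact permutation test gave p = 0.2 (0.3 to 0.8 for the other 8 genes).

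Ppp1r17, also called G-substrate, encodes a protein that inhibits protein phosphatases when cGMP-dependent kinase phosphorylates it. Ppp1r17 (ENSMUSG00000002930, chr6:56017497-56032689, plus strand) had 9.24, 10.0 and 9.25 FPKM in HET replicates 1, 2 and 3, against 9.32, 7.74 and 8.51 FPKM in WT replicates 1, 2 and 3. It varied least of the 9, with a highest value 1.29 times its lowest. The log2 difference was 0.14 (SE 0.145, 95% interval -0.15 to 0.43).

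Rora encodes the orphan nuclear receptor whose mutation causes the staggerer ataxia of mice, with loss of Purkinje cells. Rora (ENSMUSG00000032238, chr9:68653786-69388246, plus strand) had 0.472, 0.582 and 0.646 FPKM in HET replicates 1, 2 and 3, against 0.583, 0.438 and 0.636 FPKM in WT replicates 1, 2 and 3. Its mean was below the minimum of 1 FPKM, so it was not part of the test over all genes. The difference in mean log2(FPKM + 1) was 0.014 (two-sided exact permutation p = 0.8), and with the minimum lowered to 0.5 FPKM its limma adjusted p was 0.97 (95% interval -0.13 to 0.15). At so low a level the added 1 FPKM shrinks log2 differences, and with 0.1 added instead the difference was 0.035. The narrow interval therefore does not mean that Rora was measured more closely than the other markers. The sign was not stable, since the difference was -0.023 without HET replicate 3, -0.040 without WT replicate 2 and -0.048 without replicate 2 of both groups.

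**Figure D2:**
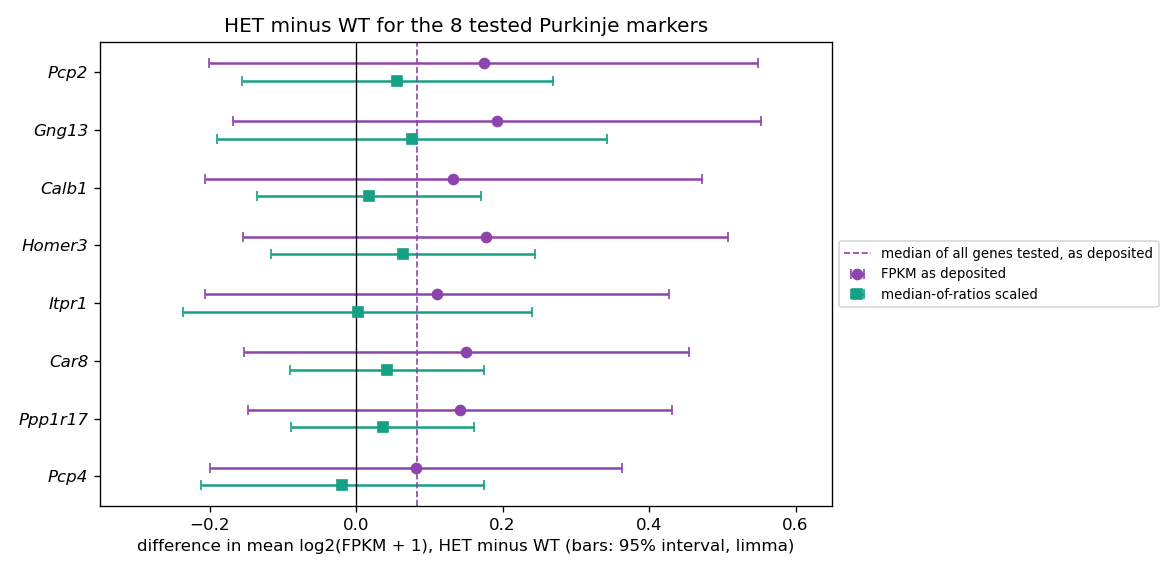
Difference in mean log2(FPKM + 1), HET minus WT, for the 8 Purkinje markers tested, with 95% intervals from limma; circles are FPKM as deposited and squares are values after median-of-ratios scaling, and the dashed line is the median of all genes tested as deposited, 0.083. Every interval spans 0, and the scaled values lie between -0.019 for Pcp4 and 0.076 for Gng13.

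One library, WT replicate 2, held the lowest value of all 9 markers. It was low across the transcriptome: its median deviation from the 6-library mean was -0.18 over all genes tested, on the log2(FPKM + 1) scale, while the mean over the 8 tested markers was -0.29. These 2 values are not on an equal footing, because the added 1 FPKM shrinks deviations of genes at low levels more. After the scaling described next they were -0.001 and -0.055. Median-of-ratios scaling, which divides each library by its median ratio to the other libraries, took the median log2 difference of all genes tested from 0.083 to -0.0014. The same scaling took the median over the 8 markers from 0.15 to 0.039. After it 7 of the 8 tested markers had a higher mean in HET, against 49.1% of all genes tested. The groups still overlapped for all 9, as they did for most genes tested (10.9% did not overlap). Pcp4 and Rora then had a lower mean in HET, with log2 differences of -0.019 and -0.025. Scaled intervals were narrower and together reached from -0.24 for Itpr1 to 0.34 for Gng13, and adjusted p-values in limma ran from 0.85 to 1.0.

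Once scaled, the extremes of most markers lay among HET libraries. HET replicate 3 was highest for 8 of 9 markers and WT replicate 3 for Itpr1. HET replicate 2 was lowest for 4, Pcp2, Car8, Pcp4 and Gng13. The shares of all genes tested with their highest or lowest scaled value in these libraries are not given here, so these counts have no background beside them. The scaled coefficient of variation over the 6 libraries was 3.36% for Ppp1r17, 3.80% for Car8 and 4.12% for Calb1, and among all genes tested 5.55%, 8.46% and 11.4% of genes varied as little or less. Itpr1 (10.1%), Gng13 (10.7%) and Rora (14.0%) varied more.

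**Figure D3:**
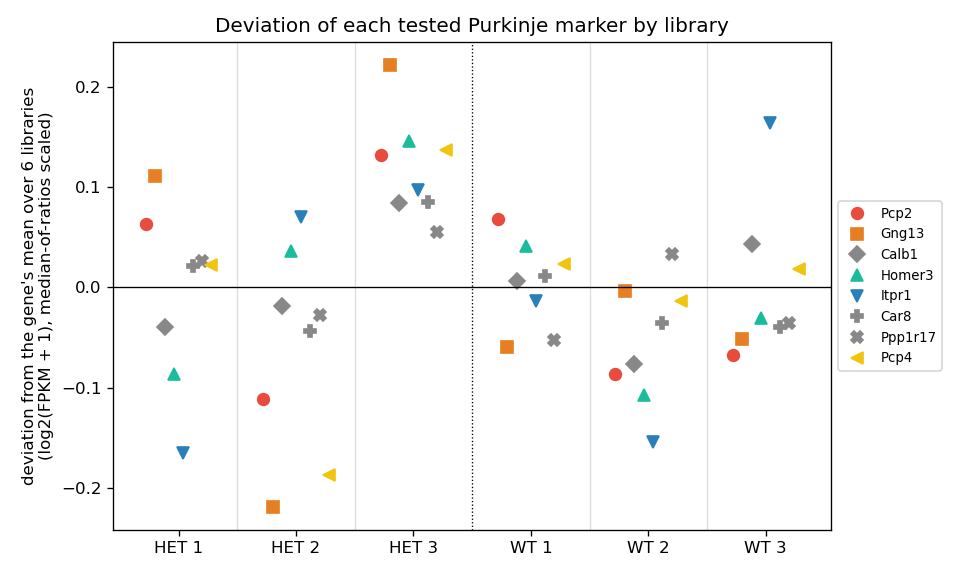
Deviation of each of the 8 tested Purkinje markers from its own mean over 6 libraries, on log2(FPKM + 1) after median-of-ratios scaling, with HET libraries left of the dotted line and WT libraries right of it. All 8 lie above 0 in HET replicate 3, Gng13 and Pcp4 lie lowest in HET replicate 2, and Itpr1 lies lowest in HET replicate 1 and WT replicate 2.

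Ratios between the 9 markers were not equally steady over the libraries. Ratios of FPKM between 2 markers of the same library do not depend on library scaling, and none of the 36 pairs had ratios that separated the groups. The 36 pairs reuse the same 9 genes, and the share over pairs of other genes was not computed, so this count has no background beside it. The steadiest pair was Car8 over Ppp1r17, with ratios of 1.29, 1.28 and 1.32 in HET replicates 1, 2 and 3 against 1.36, 1.23 and 1.29 in WT replicates 1, 2 and 3. Pcp2 over Car8 was as even, from 12.7 to 13.6 in HET and from 12.8 to 13.8 in WT.

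The least steady pair was Itpr1 over Gng13. Its ratio was 0.125, 0.188 and 0.141 in HET replicates 1, 2 and 3, against 0.158, 0.136 and 0.179 in WT replicates 1, 2 and 3, a 1.5-fold range that was as wide among HET libraries as over all 6. Homer3 was low with Itpr1 in HET replicate 1 and WT replicate 2, and Pcp4 was low with Gng13 in HET replicate 2. Itpr1 has a long mRNA, with a longest annotated coding transcript of 9870 bases, and Gng13 and Pcp4 have short ones, of 719 and 641 bases. Over all genes tested, those with transcripts over 4000 bases had a median scaled deviation of -0.043, -0.028 and 0.010 in HET replicates 1, 2 and 3 and of -0.007, 0.003 and 0.057 in WT replicates 1, 2 and 3. For genes under 1500 bases it was 0.049, 0.025 and 0.009 in HET replicates 1, 2 and 3 and -0.010, 0.001 and -0.076 in WT replicates 1, 2 and 3. In the same replicate order, Itpr1 deviated by -0.165, 0.07 and 0.097 in HET and by -0.013, -0.154 and 0.164 in WT. Gng13 deviated by 0.111, -0.219 and 0.222 in HET and by -0.059, -0.004 and -0.051 in WT. For Pcp4 the values were 0.022, -0.187 and 0.137 in HET and 0.023, -0.013 and 0.018 in WT. The part of transcript length in these ratios was not tested.

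**Figure D4:**
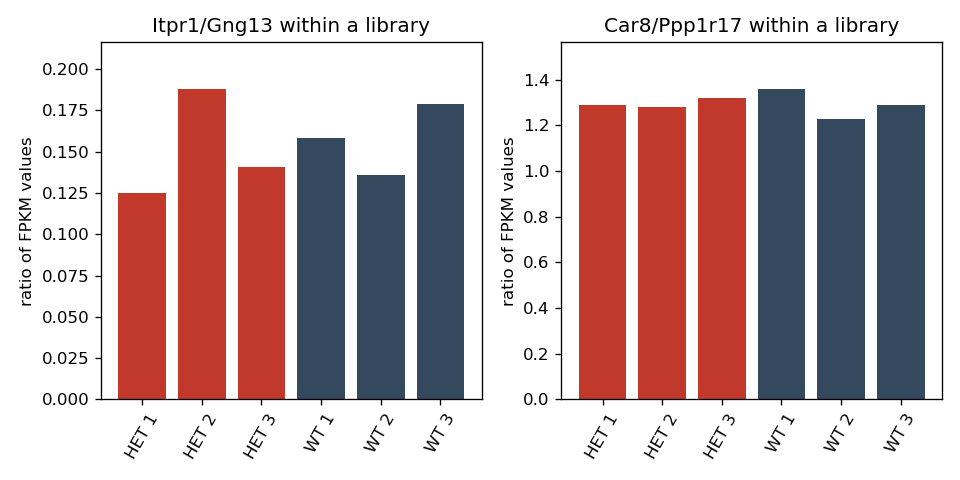
Ratio of FPKM values between 2 Purkinje markers within each library, HET libraries (red) left of WT libraries (dark), for the pair that varied most (Itpr1 over Gng13) and the pair that varied least (Car8 over Ppp1r17). The first ratio runs from 0.125 to 0.188 and the second from 1.23 to 1.36.

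A further 18 genes with known roles in Purkinje cells were compared in the same fit. Of the 13 that reached the FPKM minimum, 0 passed the test. The HET mean was higher for 10 and lower for 3 of them, and the median log2 difference was 0.055 (0.083 over all genes tested). After median-of-ratios scaling it was higher for 6 and lower for 7, with a median of -0.022. Pvalb, the calcium buffer parvalbumin that interneurons also express, stood at 45.0 ± 0.7 FPKM in HET and 40.3 ± 4.3 FPKM in WT (log2 difference 0.16). Slc1a6, the Purkinje cell glutamate transporter, stood at 2.67 ± 0.37 FPKM in HET and 2.34 ± 0.52 FPKM in WT (0.15; SD, n = 3 each). Lower means in HET were seen for Cacna1a, the P/Q-type calcium channel (-0.052), and Lhx1, a LIM homeobox factor (-0.029), and the limma adjusted p was 0.90 to 0.95 for these 4 genes.

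None of the 14 tested among 27 genes of mGluR1 and calcium signalling, in which Itpr1, Car8 and Homer3 act, passed either. The HET mean was higher for 11 and lower for 3 of them, with a median of 0.091 as deposited and -0.001 after scaling. Ppp1ca and Ppp2ca, catalytic subunits of the phosphatase classes that the Ppp1r17 protein inhibits, had 50.9 ± 4.3 and 15.9 ± 1.7 FPKM in HET, against 42.9 ± 3.8 and 13.9 ± 2.0 FPKM in WT (SD, n = 3 each; log2 differences of 0.24 and 0.19). Itpka, a kinase that phosphorylates inositol trisphosphate, had 7.05 ± 0.47 FPKM in HET and 6.17 ± 0.96 FPKM in WT (SD, n = 3 each, 0.17). The synaptic scaffold Shank1 (-0.026) and the calcium pump Atp2b2 (-0.004) had lower means in HET. The limma adjusted p ran from 0.90 to 0.99 over these 5 genes.

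Markers of other cerebellar cells were set beside the Purkinje markers. Relative to the granule cell markers of the same library, the mean deviation of the 8 tested Purkinje markers on the log2 scale was -0.004, 0.072 and 0.080 in HET replicates 1, 2 and 3, against 0.038, -0.157 and -0.029 in WT replicates 1, 2 and 3, so the groups overlapped. The median log2 difference of the list, as deposited, was 0.033 for granule cell markers (8 of 14 tested higher in HET), 0.135 for inhibitory interneuron markers (7 of 7), 0.14 for astrocyte and Bergmann glia markers (12 of 13), 0.26 for oligodendrocyte markers (10 of 10) and 0.28 for microglia markers (6 of 6). It was 0.082 for endothelial and pericyte markers (2 of 3), 0.12 for cerebellar nuclei and unipolar brush cell markers (3 of 4), -0.010 for meningeal markers (1 of 2), -0.15 for blood markers (0 of 5), -0.78 for choroid plexus markers (0 of 4) and -0.535 for nuclear noncoding RNAs (0 of 5). None of these genes passed the test. Over all genes tested the median was 0.083, and 83.1% had a higher mean in HET (49.1% after scaling). After scaling, the HET mean was higher for 5 of 14 granule cell, 4 of 7 interneuron and 9 of 13 astrocyte and Bergmann glia markers. It was higher for 10 of 10 oligodendrocyte, 6 of 6 microglia, 1 of 3 endothelial and 3 of 4 cerebellar nuclei markers. The groups overlapped for both full counts. In replicate order, mean scaled deviations of microglia markers were -0.086, 0.369 and -0.012 in HET and 0.063, -0.234 and -0.101 in WT. For oligodendrocyte markers they were -0.001, 0.141 and 0.083 in HET and 0.077, -0.14 and -0.161 in WT. No meningeal, blood, choroid plexus or nuclear noncoding gene tested then had a higher HET mean. Choroid plexus markers followed the library rather than the group: Ttr, the highest of them, had 3.15, 156 and 6.43 FPKM in HET replicates 1, 2 and 3, against 273, 0.566 and 150 FPKM in WT replicates 1, 2 and 3. WT replicate 2 was the lowest library for the Purkinje markers as deposited, and after scaling their mean deviation was -0.062 in HET replicate 2 and -0.055 in WT replicate 2. Among the other lists, after scaling, WT replicate 2 was highest for nuclear noncoding RNAs (mean deviation 0.65, with Malat1 at 677 FPKM as deposited) and granule cell markers (0.096). It was lowest for interneuron, astrocyte and Bergmann glia, microglia, endothelial, meningeal, cerebellar nuclei and choroid plexus markers, and the part of this in the Purkinje marker levels was not tested.

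**Figure D5:**
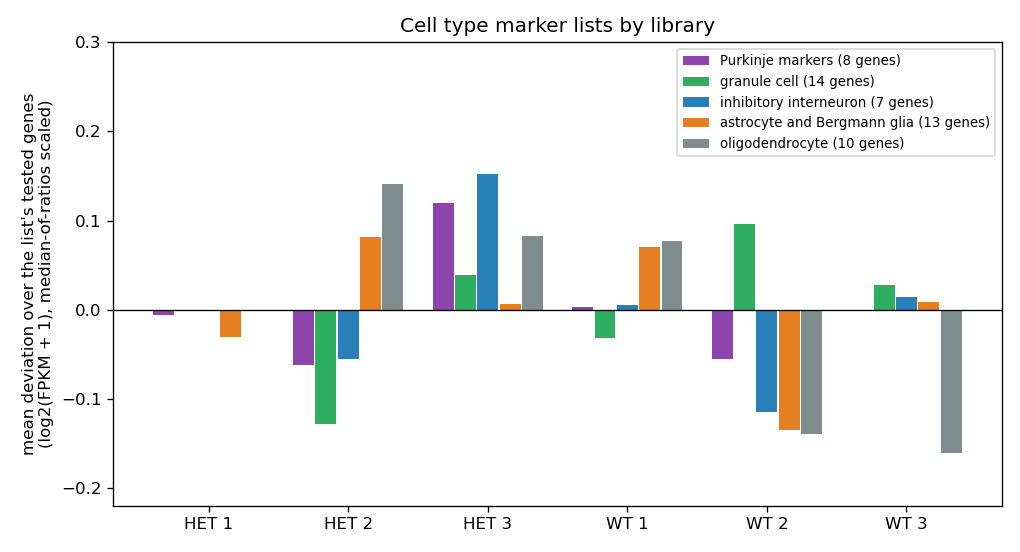
Mean scaled deviation, on log2(FPKM + 1), of Purkinje markers and of 4 other cell type lists in each library, HET libraries left of WT libraries. Purkinje markers stay between -0.062 in HET replicate 2 and 0.12 in HET replicate 3, and interneuron markers lie on the same side of 0 as Purkinje markers in HET replicates 2 and 3 and WT replicate 2.

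The genes whose scaled profile over the 6 libraries was nearest to the mean profile of the 9 markers were Snx15, Camk2n2, Thy1, Pdf and Grk6, with a root mean square difference of 0.013 to 0.022 log2 units, against a median of 0.093 over all genes tested. Markers themselves ranked from 16 (Calb1) and 17 (Car8) to 3788 (Gng13) and 4299 (Itpr1) of 6358. The mean profile includes the markers themselves, and the 5 genes named lay closer to it than any of the 8 tested markers.

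Several markers share part of their span with another gene, and whether reads were assigned by strand is not given in the sources used here. Pcp2 lies within Pet100 on the other strand, which had 4.23 to 5.91 FPKM, and the end of Homer3 overlaps Ddx49 on the other strand (1.47 to 2.05 FPKM). Chtf18, which overlaps the end of Gng13 on the other strand, had 0.164 to 0.231 FPKM, and Igsf5, which spans most of Pcp4 on the same strand, had 0.0037 to 0.00875 FPKM. Gm15511, antisense within Rora, was listed at 0 in every library. Each of these partners stood well below its Purkinje marker.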

How the data were processed

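Total RNA from cerebellum was sequenced as stranded single-end libraries on an Illumina NextSeq, cleared of mitochondrial and ribosomal reads, aligned to mm10 with TopHat2 and Bowtie and quantified with Cufflinks, per the labels' protocols. The deposited values are FPKM, 1 library per file. For the annotation release and the strand setting, no statement was found in the labels. In HET replicate 2, 40 values read as dates; those genes were left out of every test, and none is a Purkinje marker.

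The 6358 genes whose mean reached 1 FPKM were tested on log2(FPKM + 1) in R 4.3.3 with limma 3.58.1, using its intensity trend, and p-values were adjusted by Benjamini-Hochberg (threshold 0.05). This shrinks each gene's spread toward that of other genes (54.4 prior against 4 residual degrees of freedom). Single genes were also compared by two-sided exact permutation tests. Coordinates are from GENCODE M21 (GRCm38), promoters from RefSeq. Depth was estimated from steps of low values in single-transcript genes. Markers, lists and tests were chosen with earlier results of these data known. Named genes were the 9 markers, Reln, the 3 largest differences each way in the Purkinje and the mGluR1 and calcium lists (some of these are not reported here), the 5 genes nearest in profile and the highest gene of lists used as checks. Overlapping partner genes, and the pairs of markers shown, were chosen after their values were seen. Alternatives were another pseudocount, other filters, 2 scalings, no trend, a replicate block and leaving out libraries.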

Additional observations from a re-analysis of the deposited data

How the results depend on the processing

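None of the 8 tested Purkinje markers passed the test under any of the 14 alternatives run, and the median log2 difference of the 8 tested markers stayed positive, between 0.018 after quantile normalization and 0.23 without WT replicate 1. These 8 markers changed sign in 9 cases: Pcp4 with median-of-ratios scaling (-0.019), quantile normalization (-0.032) and without WT replicate 2 (-0.011); Itpr1 with quantile normalization (-0.011), without WT replicate 2 (-0.054) and without replicate 2 of both groups (-0.147); Calb1 with quantile normalization (-0.032) and without replicate 2 of both groups (-0.041); and Homer3 without replicate 2 of both groups (-0.014). Rora, outside the test, changed sign in 4 more, with median-of-ratios scaling (-0.025), without HET replicate 3 (-0.023), without WT replicate 2 (-0.040) and without replicate 2 of both groups (-0.048). Leaving out 1 library gave -0.054 to 0.215 for Itpr1, -0.011 to 0.163 for Pcp4, 0.006 to 0.222 for Calb1, 0.050 to 0.307 for Pcp2, 0.048 to 0.294 for Homer3, 0.056 to 0.245 for Car8, 0.115 to 0.266 for Gng13 and 0.082 to 0.202 for Ppp1r17, with the lowest value without WT replicate 2 and the highest without WT replicate 1 for each, except that Itpr1 was highest without HET replicate 1. Without WT replicate 2 the median of the markers was 0.049, against 0.013 over all genes tested. The cause was not tested.

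The count of genes called over the transcriptome, 5, was 1 with no filter on low values, 0 with a minimum of 0.5 FPKM, 0 after median-of-ratios scaling, 0 after quantile normalization, 0 without the intensity trend, 13 with the replicate block and 67 without replicate 2 of both groups. Leaving out 1 library gave 5 calls (without WT replicate 2) to 62 (without WT replicate 1), with 42 without HET replicate 3, 19 without HET replicate 1, 18 without HET replicate 2 and 16 without WT replicate 3. Deviations of same-numbered HET and WT libraries correlated at -0.281, -0.517 and 0.140, and those of differently numbered ones at -0.392 to 0.485. Each deviation is taken from a mean of only 3 libraries, so these values cannot show whether libraries were handled in pairs. Depth limits Rora most, with at least about 30 reads in its lowest library, and the 95% intervals of the other markers allow log2 differences from -0.21 to 0.55.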
